A study of Mus musculus with 2 samples.

Results

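The transcripts described here are those of 10 endothelial identity genes, Pecam1, Cdh5, Kdr, Eng, Emcn, Egfl7, Flt1, Cldn5, Esam and Plvap, in single Tomato+ cells of mouse periosteum. They were chosen by name from 17938 genes listed in the tables of unique molecular identifiers (UMIs, each marking 1 captured RNA molecule), and all 10 had a UMI in at least 6 cells. Cells with UMIs of 200 or more genes were kept, 503 of 600 wells, and divided into 118 cells with 1 or more UMIs of Rgs5 and 385 cells without. In αSMACreER/Ai9 mice, tamoxifen activates Cre in cells that express αSMA, the product of Acta2, and these cells and their progeny then carry the red Tomato reporter. All mice were female and received 2 doses of tamoxifen (75 mg/kg), and there was 1 pool of 2 to 3 mice per time point. The 2-day pool (10.3 weeks of age, 181 kept cells) and the 6-week pool (43 days of chase, 14.4 weeks of age, 189 kept cells) were αSMACreER/Ai9/Col2.3GFP. The 13-week pool (96 days of chase, 20.1 weeks of age, 133 kept cells) was αSMACreER/Ai9/R26-M2rtTA/TetOP-H2B-GFP and had received doxycycline for 5 weeks from postnatal day 11. Genotype, doxycycline, age and chase cannot be told apart at 13 weeks, and the 6-week cells were on a plate of their own. The sort used Tomato and a live gate without antibodies, so that cells with CD31 (the protein of Pecam1) on the surface were not removed.

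Endothelial cells line blood vessels and are held together by junction proteins, several of which are products of these genes, and they take up VEGF signals through receptors that other cells largely lack. Pericytes sit on the outside of the same capillaries, share a basement membrane with the endothelium and are commonly recognised by Rgs5, a regulator of G-protein signalling. Periosteum is rich in vessels, and an Acta2 promoter is active in pericytes and vascular smooth muscle cells.

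The genes fall into a few roles. Flt1 (chr5:147561604-147726011, minus strand, GRCm38) and Kdr (chr5:75932827-75978458, minus strand) encode VEGF receptors, and Egfl7 (chr2:26580014-26593120, plus strand) encodes a secreted endothelial matrix protein. Cdh5, VE-cadherin (chr8:104101625-104144511), Cldn5, a claudin of tight junctions (chr16:18776847-18778262), Esam, an adhesion molecule of endothelial junctions and platelets (chr9:37528078-37538319), and Pecam1 (chr11:106654217-106750628) encode junction proteins. Eng (chr2:32646595-32682669) encodes the TGFβ co-receptor endoglin, which mesenchymal cells also carry, Emcn (chr3:137341067-137432185) encodes the sialomucin endomucin of capillaries and veins, and Plvap (chr8:71497765-71511752) encodes a protein of the diaphragms of fenestrae and caveolae. In GENCODE M21, Egfl7 overlaps Gm20532 on the same strand and Agpat2 on the other, Eng overlaps Fpgs, Plvap overlaps Gtpbp3, and Cdh5 overlaps the antisense gene Gm29682, so that reads in the overlaps may be assigned to either gene.

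The RefSeq promoter table (GRCm38.p6) held 8 start sites of 6 of these genes, 3 of them of Egfl7. In the 250 bases upstream of each start, the ETS-family motif AGGAAG, searched on both strands and therefore also as CTTCCT, occurred in the windows of Flt1, Eng and Emcn and in 2 of the 3 Egfl7 windows, and not in those of Kdr and Cldn5. The same letters occurred in 29.5% of 32851 promoter windows of this length. The shorter core GGAA was present in 93.4% of them and is therefore not marked. The 3 Egfl7 windows held 3, 1 and 0 matches of AGGAAG, and only the window with 3 is shown. The windows of 4 genes are shown, 5′ to 3′ along the gene with the motif in capitals: Flt1 and Egfl7 because they were detected in the most cells, Kdr because its UMIs lay almost entirely in cells with another of the genes, and Eng because many of its UMIs did not.
Flt1 (chr5:147726012-147726261, minus strand): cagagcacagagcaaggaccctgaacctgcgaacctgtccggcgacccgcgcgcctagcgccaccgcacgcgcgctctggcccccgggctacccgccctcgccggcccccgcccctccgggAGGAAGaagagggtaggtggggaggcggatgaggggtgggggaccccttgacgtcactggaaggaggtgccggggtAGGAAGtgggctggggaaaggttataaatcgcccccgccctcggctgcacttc
Egfl7 (chr2:26580833-26581082, plus strand): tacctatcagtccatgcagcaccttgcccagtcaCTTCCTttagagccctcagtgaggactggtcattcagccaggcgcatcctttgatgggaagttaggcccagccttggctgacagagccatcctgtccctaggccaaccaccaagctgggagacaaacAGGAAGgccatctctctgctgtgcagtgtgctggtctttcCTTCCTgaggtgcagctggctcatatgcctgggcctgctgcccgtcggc
Kdr (chr5:75978456-75978705, minus strand): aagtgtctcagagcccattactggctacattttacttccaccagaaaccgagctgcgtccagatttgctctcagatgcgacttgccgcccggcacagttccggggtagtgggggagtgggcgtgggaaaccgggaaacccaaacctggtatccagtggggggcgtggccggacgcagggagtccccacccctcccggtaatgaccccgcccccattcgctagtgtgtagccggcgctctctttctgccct
Eng (chr2:32646345-32646594, plus strand): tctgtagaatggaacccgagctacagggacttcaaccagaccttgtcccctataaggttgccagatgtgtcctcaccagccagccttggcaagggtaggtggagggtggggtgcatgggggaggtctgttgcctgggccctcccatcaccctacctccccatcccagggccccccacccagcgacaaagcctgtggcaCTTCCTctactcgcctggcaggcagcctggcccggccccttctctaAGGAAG

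The kept cells held 445796 UMIs, and the median cell had 727 UMIs and 469 genes. At this depth, transcripts of low level are missed in many cells that contain them. Median depth was 603 UMIs in cells with Rgs5 and 760 in cells without. Acta2, whose promoter drives the Cre, had a UMI in 21.3% of kept cells, and Ptprc (CD45, of blood cells) in 0.398%. The 2 plates used the same set of well barcodes, 137 of which marked kept cells on both, and 1 of these marked a cell with 2 or more of the endothelial genes on both. No doublet caller was run, and wells that held RNA of more than 1 cell were not removed.

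In all, 398 UMIs of the 10 genes were counted, in 100 of 503 cells (19.9%, exact 95% interval 16.5 to 23.6). Flt1 was found in 47 cells (102 UMIs) and Egfl7 in 45 cells (70 UMIs), and together they made up 43.2% of the UMIs of the 10 genes. Esam followed in 29 cells, Cdh5 in 28, Pecam1 and Eng in 25 each and Kdr in 23. The number of cells differed little among these 5 genes. Emcn was found in 11 cells, Plvap in 8 and Cldn5 in 6, so that 3 of the genes contributed few molecules. UMIs mark 3′ ends and were not scaled by transcript length. Most cells with a given gene had only 1 UMI of it, from 52% of the cells with Pecam1 to 96% of those with Eng and all of those with Emcn and Cldn5. Single cells weighed on 2 of the genes. A 13-week cell with 3884 UMIs held 10 of the 53 Pecam1 UMIs, and a 13-week cell without Rgs5 held 6 of the 13 Plvap UMIs (46.2%). Reads per UMI were 8.55 for Flt1 and 8.49 for Egfl7 but 3.12 for Eng, 3.36 for Emcn and 3 for Cldn5, against 6.07 over all genes.

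**Figure D1:**
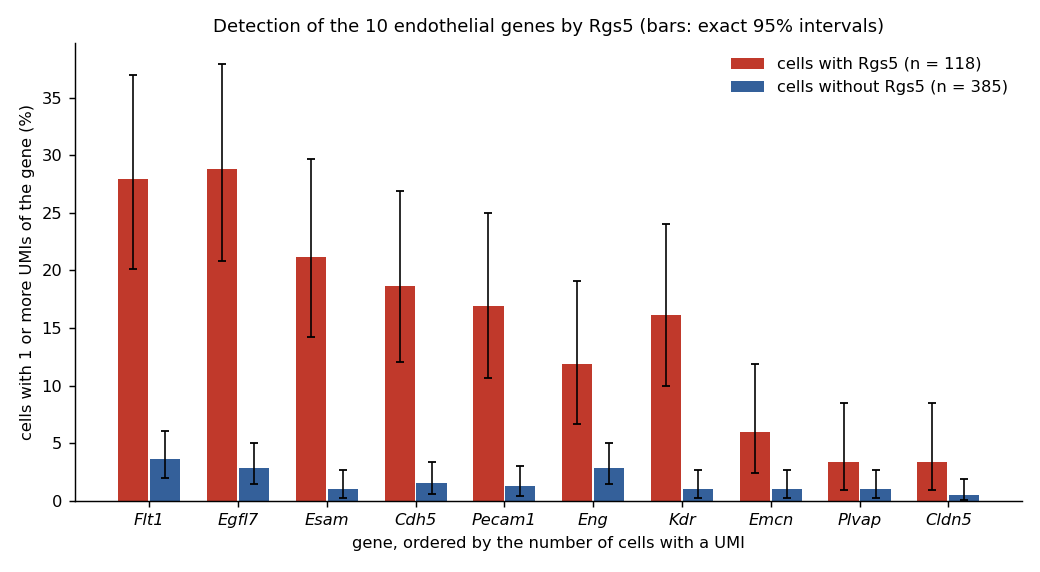
Percentage of cells with 1 or more UMIs of each gene, in 118 cells with Rgs5 (red) and 385 cells without (blue), all 3 pools together. Bars on the columns are exact 95% intervals, which cover counting error only. The red columns of Flt1 and Egfl7 stand at 28.0% and 28.8%, and no blue column exceeds 3.64%.

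The endothelial genes were concentrated in few cells. Of the 100 cells with any of them, 48 had 2 or more, and these 48 cells, 9.54% of those kept, held 345 of the 398 UMIs (86.7%). Flt1 was present in 39 of the 48 cells (81.2%), Egfl7 in 37 (77.1%) and at least 1 of the pair in 45. Cdh5 was present in 24, Kdr in 22, Pecam1 in 21, Esam in 20, Eng in 13, Plvap in 7, and Emcn and Cldn5 in 6 each. The genes differed in how often they stood alone. Kdr was the only gene of the set in 1 of its 23 cells and Cldn5 in none of its 6, whereas Eng stood alone in 12 of 25 cells (48%) and Emcn in 5 of 11. Esam stood alone in 9 of 29 cells, and 8 of these 9 had Rgs5, whereas only 2 of the 12 cells with Eng alone had it.

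Co-detection was high between most pairs. With independent detection, Flt1 and Egfl7 would be expected together in 4.20 cells, the product of their shares, and they were found together in 31. Cdh5 and Flt1 were found together in 19 cells against a product of 2.62, Kdr and Flt1 in 19 against 2.15, and Cdh5 and Kdr in 14 against 1.28. Of the 45 pairs, 43 lay above the product of their shares, and Emcn was never found with Cldn5 or Plvap, where the products were 0.131 and 0.175 cells. Within the 2-day, 6-week and 13-week pools, 27, 39 and 43 pairs lay above the product, and the remaining 18, 6 and 2 pairs were never seen in the same cell. Where a product is below 1 cell, 1 shared cell puts the pair above it. Such counts then restate which pairs were ever seen together. Flt1 and Egfl7 shared 4, 14 and 13 cells in the 3 pools, against products of 0.354, 2.12 and 2.43. Of the cells with Kdr, 82.6% also had Flt1, as did 72% of those with Pecam1, 67.9% with Cdh5, 58.6% with Esam and 44% with Eng. Cells differed in depth, which can raise co-detection, and its part in these counts was not tested. With each cell thinned to 300 UMIs, which left 483 cells, 25 pairs lay above the product and 20 were not seen together in any cell. The medians over the pairs were 1 shared cell and a product of 0.124 cells after thinning, and 6 and 0.984 before. Flt1 and Egfl7 shared 6 cells after thinning, against a product of 0.911. Across 503 cells, the correlation of ln(1 + UMIs per 10000) of each gene with the mean of the other 9 was highest for Flt1 (Pearson r = 0.74), Kdr (0.64) and Egfl7 (0.61) and lowest for Emcn (0.17). After thinning, Flt1 stood at 0.45 and Emcn at -0.02. Such values share the depth of each cell and are given as a description.

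**Figure D2:**
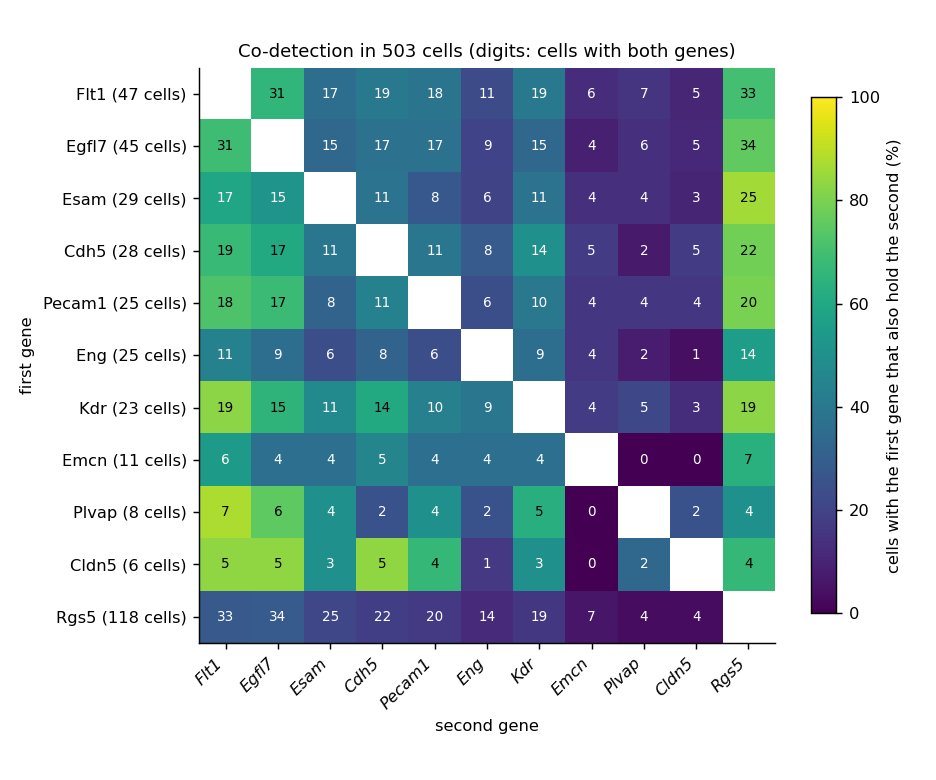
Co-detection of the 10 genes and Rgs5 in 503 cells. Colour gives the percentage of the cells with the row gene that also had the column gene, digits give the number of cells with both, and the diagonal is left blank. The row of Kdr is bright at Flt1 (19 of 23 cells), the row of Eng is darker throughout, and the column of Rgs5 is bright for every gene, from 50% of the cells with Plvap to 86.2% of those with Esam.

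Cells with Rgs5 held most of the endothelial transcripts. Of the 118 cells with Rgs5, 59 (50%) had at least 1 of the 10 genes and 41 (34.7%, interval 26.2 to 44.1) had 2 or more. Of the 385 cells without Rgs5, 41 (10.6%) had any and 7 (1.82%, interval 0.734 to 3.71) had 2 or more. The converse held as well, since 41 of the 48 cells with 2 or more of the genes had Rgs5 (85.4%, interval 72.2 to 93.9), against 34.6% of the 52 cells with 1 gene and 14.6% of the 403 cells with none. In the 2-day pool, 10 of 10 such cells had Rgs5, in the 6-week pool 16 of 19, and in the 13-week pool 15 of 19. Thus each pool showed the same direction, although 50% of the cells with Rgs5 had no UMI of any of the 10 genes.

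**Figure D3:**
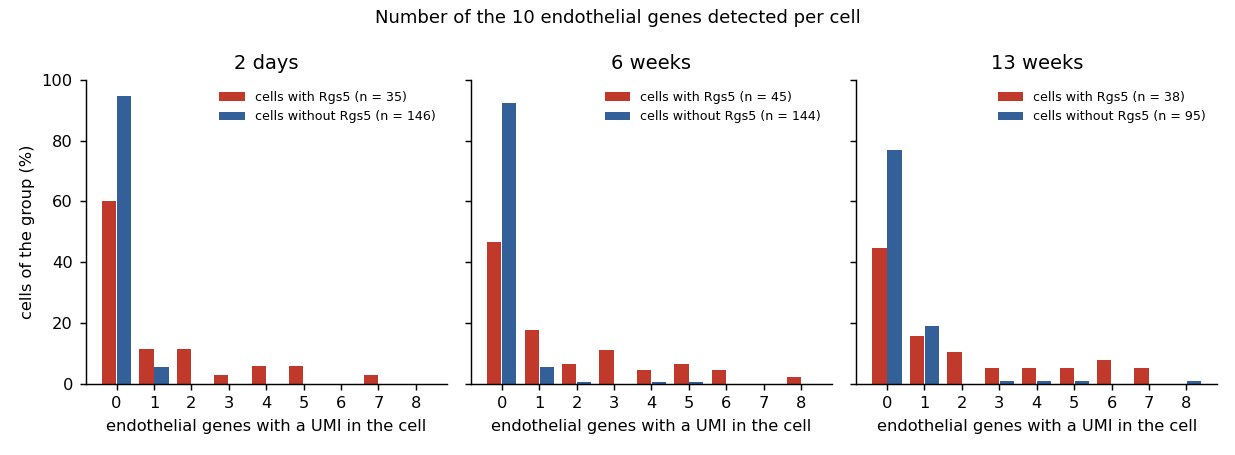
Distribution of the number of the 10 endothelial genes with a UMI in a cell, as a percentage of the cells with Rgs5 (red) and without (blue) in each pool. Blue columns stand almost wholly at 0 and 1 (94.5% at 0 in the 2-day pool and 76.8% in the 13-week pool), and red columns extend to 7 or 8 genes.

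The share was also measured in 211 tendon-like cells, a type that lacks most of these genes, although mesenchymal cells can carry Eng. They were cells without Rgs5 that had 2 or more UMIs over Tnmd, Fmod and Thbs4, genes of tendon. Their median depth was 783 UMIs, and 15 of them (7.11%, interval 4.03 to 11.5) had a UMI of any of the 10 genes. None of the 211 had 2 or more, which allows a share of up to 1.42%. Flt1, Esam and Cldn5 were not detected in them, whereas Eng was found in 6 (2.84%). The other 174 cells without Rgs5 had Eng in 5 (2.87%, interval 0.939 to 6.58) and any of the 10 genes in 26 (14.9%). Whether the Eng UMIs of cells without Rgs5 were free RNA or made by these cells was not tested. Wells under the 200-gene minimum held 14 UMIs of the 10 genes, 8.39 per 10000 UMIs, against 8.93 in kept cells.

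Both VEGF receptors were higher in cells with Rgs5 in every pool. For Flt1, the level in cells with Rgs5 was 3.28 UMIs per 10000 in the 2-day pool, 9.82 in the 6-week pool and 10.1 in the 13-week pool, and in cells without it was 0.136, 0.583 and 1.98. The ranges did not overlap, a description since the share of all genes that separate in this way is not given here. To test the difference, UMIs were summed in each pool over cells with and without Rgs5, and the 6 sums were fitted by edgeR's quasi-likelihood test with the pool as a block. Flt1 was higher by 3.31 on the log2 scale (SE 0.41, edgeR adjusted p = 5.96e-11 by the Benjamini-Hochberg method). The pools differ in age and chase. The p-values rest on a spread that edgeR shares over all genes, and not only on the spread of 1 gene over these 3 pools. For Kdr, the levels were 2.87, 2.18 and 5.03 UMIs per 10000 with Rgs5, and without it there was no UMI in the 2-day pool and the later pools stood at 0.0833 and 0.349 (log2 fold change 4.57, SE 0.58, edgeR adjusted p = 8.91e-11). No Kdr UMI among 146 cells at 2 days allows a level of up to 0.204 per 10000.

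Egfl7, the secreted protein, stood at 4.10, 7.09 and 6.60 UMIs per 10000 in cells with Rgs5 at 2 days, 6 weeks and 13 weeks. In cells without Rgs5, there was no UMI at 2 days and the levels were 0.583 and 0.698 at the later times (log2 fold change 3.90, SE 0.49, edgeR adjusted p = 5.7e-11). The level in the lowest pool of cells with Rgs5 lay above the highest without, again a description.

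Among the junction genes, Cdh5 was at 3.69, 2.73 and 5.03 UMIs per 10000 with Rgs5 and at 0.0681, 0.167 and 0.465 without (log2 fold change 4.06, SE 0.52, edgeR adjusted p = 1.58e-10). Esam was at 3.28, 4.64 and 3.14 with Rgs5 and at 0, 0.0833 and 0.465 without (log2 fold change 4.50, SE 0.56, edgeR adjusted p = 6.13e-11). Neither gene overlapped between the groups, and the share of all genes that separate in this way is not given here. These 5 genes passed the filter on low counts, and they passed it on the strength of the cells with Rgs5, so that their number among the called genes is not read as evidence. In this fit, 11.8% of 926 genes were called higher in cells with Rgs5 and 11.8% lower, and without the 6-week pool 64 genes in place of 109 were called higher and 55 in place of 109 lower. With each cell thinned to 300 UMIs before summing, Flt1 was the only one of the 10 genes to pass the filter, and it was called higher.

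The other 5 genes fell below that filter and were fitted without it, together with all 16149 genes that had a UMI. In that fit, 6 of the 10 genes were called higher, against 0.44% of all genes, with 1.35% of all genes lower, and the median of all genes was -0.74 on the log2 scale. Only 926 genes had passed the filter, of which 11.8% were called higher. The 0.44% is therefore a low background for genes with as many UMIs as these 6. The sixth gene called was Pecam1, at 1.23, 4.64 and 7.86 UMIs per 10000 with Rgs5 and 0.0681, 0.333 and 0.349 without (log2 fold change 3.58, SE 0.55, edgeR adjusted p = 2.79e-08). Eng, with 15 UMIs in cells with Rgs5 and 11 in cells without, had a log2 fold change of 1.76 (SE 0.69, edgeR adjusted p = 0.274). Emcn, on 11 UMIs in all, was at 2.06 (SE 1.12, edgeR adjusted p = 0.770), and Cldn5, on 6 UMIs, at 2.11 (SE 1.82, edgeR adjusted p = 0.958), and neither passed. Plvap was the exception in level. It had 4 UMIs in cells with Rgs5 and 9 in cells without, with a log2 fold change of 0.00 (SE 0.48, edgeR adjusted p = 0.999), and its level in cells with Rgs5 exceeded that in cells without in the 6-week pool alone. The share of cells with Plvap was 3.39% with Rgs5 and 1.04% without, and 5.26% and 3.16% at 13 weeks. The lower level with Rgs5 at 13 weeks rested on 1 cell without Rgs5 that held 6 of the 8 Plvap UMIs of its group, and without that cell the group stood at 0.236 UMIs per 10000, below the 0.629 of cells with Rgs5. No difference of Plvap was detected, on 13 UMIs in all.

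**Figure D4:**
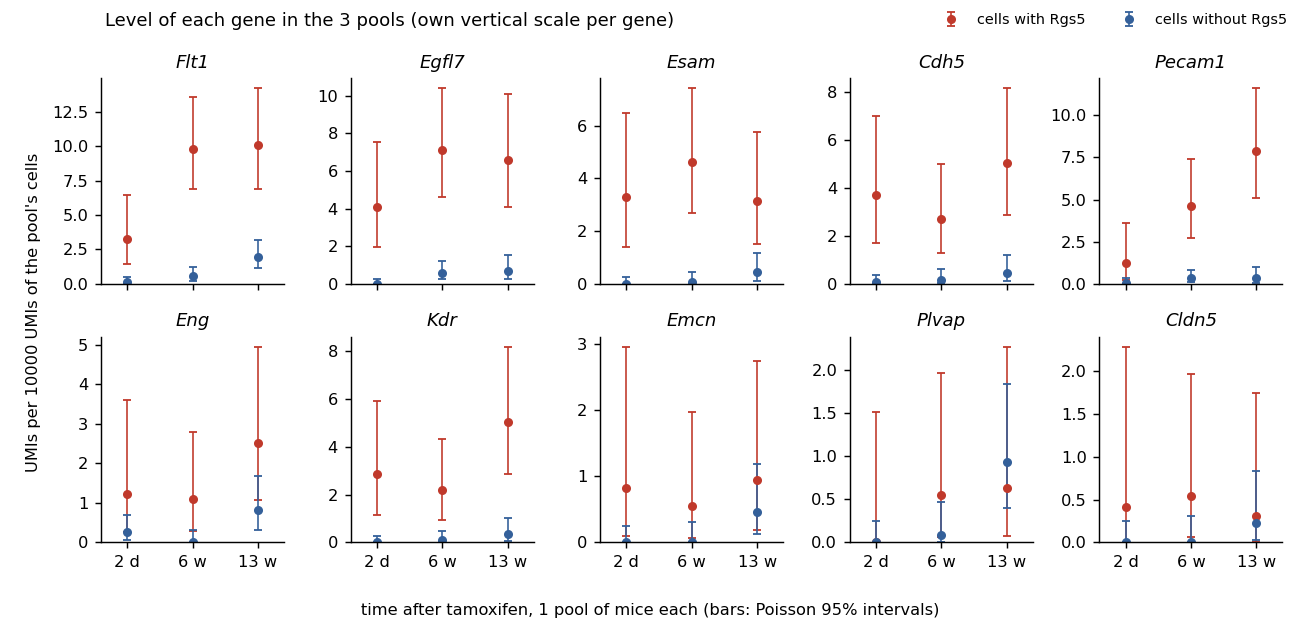
Level of each gene, in UMIs per 10000 UMIs of the cells summed, in cells with Rgs5 (red) and without (blue) in the 2-day, 6-week and 13-week pools. Each gene has its own vertical scale and bars are Poisson 95% intervals. All genes but Plvap show red points above all blue ones, on 26 UMIs or fewer each for Eng, Emcn and Cldn5. The points of Plvap cross at 13 weeks (0.629 with Rgs5, 0.930 without).

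Lists of related genes were read from the same fit of cells with and without Rgs5, in which 11.8% of all genes were called in each direction. Endothelial and pericyte genes reached the filter largely through the cells with Rgs5, so that their counts among tested genes are a description. Without the filter, 9 of 28 other endothelial, 6 of 8 capillary and 6 of 11 pericyte genes were called higher, against 0.44% of all genes. That share counts many genes with few UMIs and is a low background for these lists. Of the 28 other endothelial genes, 8 passed the filter and 7 were called higher, with Ptprb at 4.57 (SE 0.49) and Ramp2, a receptor activity modifier, at 0.76 (SE 0.46, edgeR adjusted p = 0.254). All 4 tested capillary genes were higher, with Fabp4 at 4.86 (SE 0.34, edgeR adjusted p = 9.35e-25). Of 16 VEGF, angiopoietin and Notch partners, 4 passed and 2 were called higher, Nrp1 (1.22, edgeR adjusted p = 0.0229) and Id1 (1.37, edgeR adjusted p = 0.0129). DESeq2 called 0 of these 4 (0 at an unadjusted p under 0.05), and edgeR without the filter 0 of 16 (1 at an unadjusted p under 0.05). Pericyte genes moved the same way, with 6 of 6 tested genes higher, among them Pdgfrb (1.96, SE 0.34), Notch3 (2.61, SE 0.44) and Kcnj8 (4.58, SE 0.52). Acta2 (0.89), Tagln (1.38) and Myl9 (1.66) were called among 6 smooth muscle genes tested, of which DESeq2 called 1. All 7 tested tendon genes, 4 of 4 skeletal muscle genes, 2 of 2 osteoblast genes and 4 of 8 fibroblast or progenitor genes were lower. DESeq2 called 0 of the 2 osteoblast genes (1 at an unadjusted p under 0.05), 3 of the 4 skeletal muscle genes and 5 of the 6 pericyte genes. Of red blood cell genes, 0 of 4 were called by edgeR or DESeq2 (0 at an unadjusted p under 0.05), and without the filter edgeR called 1 of 5, Hbb-bs, lower (2 at an unadjusted p under 0.05). Genes of the satellite cell, immune, platelet, Schwann, arterial, venous and lymphatic lists did not reach the filter. Without it, 1 arterial gene, Gja4, was called higher, and no gene of the satellite cell, venous, lymphatic, immune or platelet lists was called in either direction (3 satellite cell, 1 venous, 1 lymphatic, 0 immune and 0 platelet genes at an unadjusted p under 0.05).

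Cells with Rgs5 were shallower than cells without, and depth moved with the shares within them. Cells were divided by UMIs into a shallow (246 to 534), a middle (539 to 926) and a deep (929 to 3928) part of near equal size. Among cells with Rgs5, 13.7%, 37.8% and 66.7% had 2 or more of the genes in the shallow, middle and deep part, and among cells without Rgs5, 1.71%, 0.769% and 2.90%. The share rose with depth in cells with Rgs5 and stayed low at all depths in those without. Thinned to 300 UMIs, 20.5% of cells with Rgs5 and 0.809% of cells without had 2 or more, a difference of 19.7 percentage points (interval 12.5 to 28.4, counting error only).

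Cells with both signals were deeper than other cells with Rgs5, a description since the number of genes detected, which rose with depth, chose the cells. The 41 cells with Rgs5 and 2 or more endothelial genes had a median of 913 UMIs (343 to 3928), against 503 in the 59 cells with Rgs5 and none of the genes and 751 in the 344 cells with neither. Rgs5 itself was at 63.6 UMIs per 10000 in the 41 cells and at 72.3 in the 59, a description since Rgs5 chose the cells. In the 41 cells, Pdgfrb, the PDGF receptor of mural cells, had a UMI in 15 (36.6%), Kcnj8 (a potassium channel subunit) in 10, Abcc9 (its partner) in 9, Notch3 in 7, Vtn in 1 and Rgs4 in none. In the 59 cells these genes had a UMI in 23, 14, 7, 17, 9 and 5, and in the 344 cells with neither signal Pdgfrb had one in 57 (16.6%), Notch3 in 16, Vtn in 10, Kcnj8 in 7, Rgs4 in 4 and Abcc9 in 2. Without Rgs5, which made up 299 of the 400 pericyte list UMIs of the 41 cells, the other 11 pericyte genes summed to 21.5 UMIs per 10000 in the 41 cells (Poisson 95% interval 17.5 to 26.1), 45.8 in the 59 (39.2 to 53.3) and 5.08 in the 344. The sums of these 11 genes in the 41 and the 59 cells were 37.9 and 38.1 in the 2-day pool, 12.1 and 39.0 in the 6-week pool and 24.3 and 61.4 in the 13-week pool. The 41 cells lay below the 59 in both later pools and differed little from them in the 2-day pool. The 9 smooth muscle genes summed to 26.8 and 44.5, lower in the 41 cells at 2 days (18.4 and 38.8) and 13 weeks (24.3 and 70.8) but not at 6 weeks (32.6 and 23.9). Genes of red blood cells summed to 96.0 in the 41 cells, nearly all in the 6-week pool, where 1 cell had over 100 hemoglobin UMIs, and to 2.73 in the 59. Immune genes summed to 0.851 and 11.5, the latter from 5 of the 59 cells and mostly from the 13-week pool (33.3, against 0.732 at 2 days and 1.77 at 6 weeks). Whether such wells held RNA of more than 1 cell was not tested.

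Genes outside the set were used to see what the cells with 2 or more endothelial genes otherwise expressed. They were compared with cells that had none by the same edgeR fit, leaving out the 10 genes, which had chosen the cells. Their median depth was 930.5 UMIs, against 715 in cells with none. Of 730 genes tested, 10% were called higher (73 genes) and 11.9% lower, and without the 2-day pool 43 genes were called higher and 35 in place of 87 lower. Without the filter, 0.342% of 15781 genes were called higher and 1.75% lower. Of a list of 28 other endothelial genes, 9 passed the filter and all 9 were called higher, among them Ptprb, the endothelial phosphatase VE-PTP (log2 fold change 5.08, SE 0.52), and Podxl, a podocalyxin of the luminal surface (5.57, SE 0.69). Without the filter, 13 of the 28 were called. Icam2, an adhesion molecule of endothelium, had 17 UMIs in the 48 cells and none in cells without the 10 genes. All 4 tested of 8 capillary genes were higher. The fatty acid binding protein gene Fabp4 was at 146, 118 and 171 UMIs per 10000 in the 3 pools of cells with 2 or more of the genes, and at between 2.00 (2 days) and 9.16 (13 weeks) in cells with none. The ranges lay far apart (log2 fold change 5.11, SE 0.40, edgeR adjusted p = 3.58e-05). Gpihbp1, which holds lipoprotein lipase at the capillary wall, was higher by 5.99 (SE 0.67), and the fatty acid transporter gene Cd36 by 4.45 (SE 0.33). Both lists passed the filter mainly through the cells in which they are high.

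Of the 3 pericyte genes that passed the filter, 1 was called higher. Rgs5 was higher in all 3 pools (log2 fold change 2.84, SE 0.30, edgeR adjusted p = 0.000154), while Pdgfrb (0.60, SE 0.48, adjusted p = 0.432) and Abcc9 (1.95, SE 0.79, adjusted p = 0.109) did not pass, and 0 of 7 smooth muscle genes were called by edgeR (1 at an unadjusted p under 0.05) or DESeq2, with Acta2 at -0.18 (SE 0.43, edgeR adjusted p = 0.823). All 7 tested tendon genes and 5 of 7 fibroblast or progenitor genes were lower, with Tnmd, of tendon, at -4.30 (SE 0.40) and Thbs4, a thrombospondin of tendon, at -4.74 (SE 0.42). Of the osteoblast list, edgeR called 0 of 2 tested genes (2 at an unadjusted p under 0.05), DESeq2 called Alpl, an alkaline phosphatase, higher, and edgeR without the filter called Bglap and Bglap2, both osteocalcins, lower, so that the calls depended on the tool and the filter. All 3 tested skeletal muscle genes were lower, of which DESeq2 called 2. Of 4 red blood cell genes, none was called by edgeR (0 at an unadjusted p under 0.05) or DESeq2 (1), and without the filter edgeR called Hbb-bs lower. Among VEGF, angiopoietin and Notch partners, 1 of 4 tested genes, the BMP target Id1, was higher (1.91, SE 0.46, edgeR adjusted p = 0.0120), and the VEGF co-receptor gene Nrp1 was at 1.38 (adjusted p = 0.0784). DESeq2 called 0 of the 4 (1 at an unadjusted p under 0.05), and edgeR without the filter 0 of 16 (2 at an unadjusted p under 0.05). No arterial, venous, lymphatic, immune or platelet gene passed the filter. Without it, edgeR called the arterial gene Efnb2 higher (6 of 8 arterial genes at an unadjusted p under 0.05) and the immune gene S100a8 lower (3 of 9), and none of 6 venous (2 at an unadjusted p under 0.05), 7 lymphatic (0) or 3 platelet genes (0). Summed levels in the 41 cells were 13.6 UMIs per 10000 for 8 arterial genes, 3.62 for 7 venous genes and 2.55 for 7 lymphatic and sinusoidal genes, against 1.64, 4.36 and 1.09 in the 59 cells with Rgs5 and none of the endothelial genes. The 6-week pool carried much of the first 2 values. In the 41 cells the 2-day, 6-week and 13-week pools had arterial sums of 3.45, 19.9 and 11.3 (8.71 without the 6-week pool) and venous sums of 1.15, 5.83 and 2.26 (1.89 without it).

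Some genes of the capillary list, among them Fabp4 and Cd36, were also found in cells in which none of the 10 genes was seen. In the 59 cells with Rgs5 and none of the 10, the 8 capillary genes summed to 37.9 UMIs per 10000 (Poisson 95% interval 31.9 to 44.8), against 205 in the 41 cells and 2.54 in the 344 cells with neither. Fabp4 was found in 18 of these 59 cells and Cd36 in 17, while Gpihbp1 and Rgcc were found in 1 each. The 28 other endothelial genes had 55 UMIs in the 59 cells, 7 of them of Ly6c1, and 394 in the 344 cells, 190 of them of Ly6c1. Ly6c1 was at 1.91 UMIs per 10000 in the 59 cells and 6.11 in the 344, while Ptprb was at 1.91 and 0.129 and Cavin2, a caveolar coat protein, at 2.73 and 0.740, so that members of the list went both ways. Fabp4 and Cd36 were also found in 16 and 9 of the 344 cells with neither signal.

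**Figure D5:**
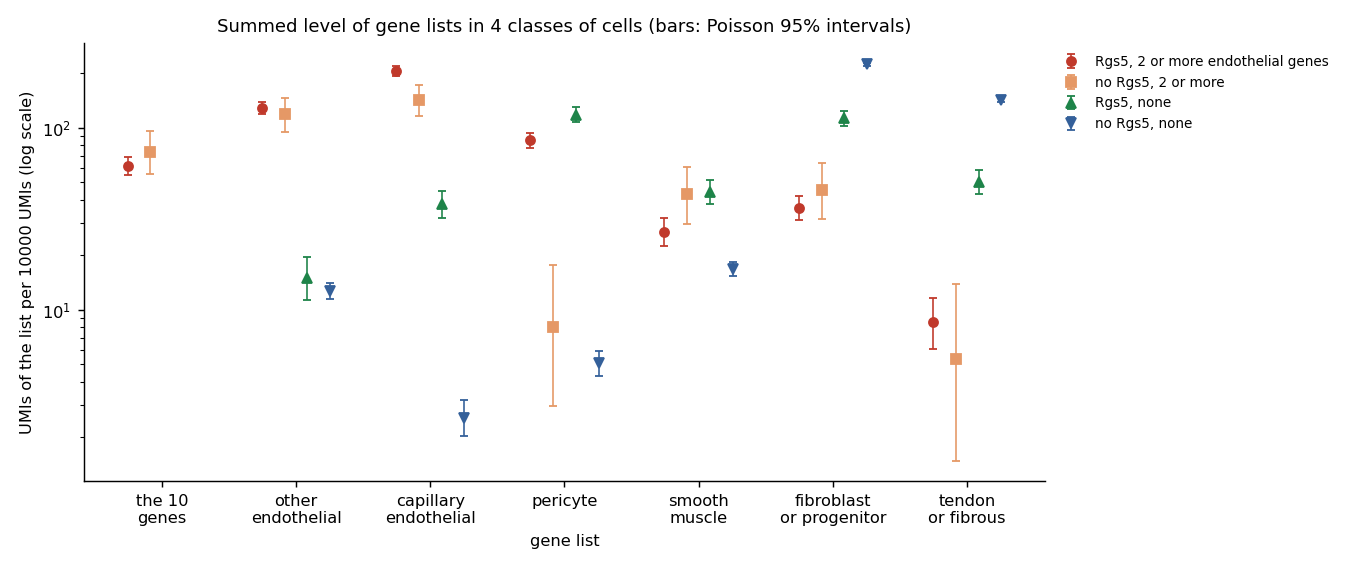
Summed level of gene lists, in UMIs per 10000 on a log scale, in 4 classes of cells defined by Rgs5 and by the number of the 10 endothelial genes detected. Bars are Poisson 95% intervals, and classes with none of the 10 genes have no point for them. The capillary list falls from 205 in cells with Rgs5 and 2 or more endothelial genes to 2.54 in cells with neither, and the pericyte list, which contains Rgs5, is at 8.07 in the 7 cells without Rgs5.

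Over 503 cells and 6545 other genes found in at least 10 cells, the genes whose ln(1 + UMIs per 10000) followed the mean of the 10 most closely were Fabp4 (Pearson r = 0.68), Ptprb (0.62), Gpihbp1 (0.61), Cd36 (0.57) and Podxl (0.57), followed by Tspan13, Cav1, Aqp1, Mmrn2 and Epas1 (0.49). Fabp4 was present in 45 of the 48 cells with 2 or more of the genes. Rgs5 ranked 26th of these genes (r = 0.40), and Pdgfrb (0.04) and Acta2 (0.08) followed the mean hardly at all. Within the 118 cells with Rgs5, the level of Rgs5 and the mean of the 10 genes had r = -0.15, and Fabp4 had r = 0.61. These correlations share cell depth and plate and are given as a description.

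Only 7 cells had 2 or more of the genes and no Rgs5, 3 in the 6-week pool and 4 in the 13-week pool. Flt1 and Egfl7 were present in all 7. The cell with the most genes, at 13 weeks, had 8 of the 10 (all but Cdh5 and Emcn), with 9 UMIs of Flt1, and held no UMI of Acta2 or of any gene of the pericyte list among 1558. Of the pericyte genes, Ndufa4l2 was in 2 of the 7 cells, Abcc9, Notch3, Cox4i2 and Vtn in 1 each and Pdgfrb in none, and 4 of the 7 cells had a UMI of the list. The list summed to 8.07 UMIs per 10000 (interval 2.96 to 17.6), against 5.08 in the 344 cells with neither signal and 21.5 for the same genes in the 41 cells. Acta2 was in 3 of the 7 cells, and their smooth muscle genes summed to 43.0 UMIs per 10000 (8.74 at 6 weeks and 58.3 at 13 weeks), against 26.8 in the 41. Their capillary genes were at 143 UMIs per 10000, but at 43.7 in the 3 cells at 6 weeks and 186 in the 4 at 13 weeks, where 1 cell held 43 Fabp4 UMIs of the 96 UMIs of the list in these 4 cells. Their other endothelial genes were at 118 UMIs per 10000, 83.0 at 6 weeks and 134 at 13 weeks. The 10 genes themselves were at 73.9 UMIs per 10000 in the 7 cells (interval 55.7 to 96.2) and at 61.7 in the 41 (interval 54.8 to 69.3). Since 2 or more of these genes were required in both classes, these levels are a description. Of the cells with Rgs5, the one with the most of the genes was at 6 weeks and had 24 UMIs over 8 of them, 8 of them of Flt1 and 5 of Egfl7, and a single Rgs5 UMI among 2626.

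The 10 genes were found in 22 of 181 cells at 2 days (12.2%, interval 7.78 to 17.8), 35 of 189 at 6 weeks (18.5%, interval 13.3 to 24.8) and 43 of 133 at 13 weeks (32.3%, interval 24.5 to 41.0). With 1 pool per time point there is no test between times. Between 2 days and 13 weeks, which shared a plate, the difference was 20.2 percentage points (interval 10.5 to 29.9, counting error only). Part of it lay in cells without Rgs5, where the share was 5.48% at 2 days and 23.2% at 13 weeks. However, the tendon reference cells moved alike, from 2 of 86 (2.33%) to 10 of 53 (18.9%). The reference cells are among the cells without Rgs5, and the others stood at 6 of 60 (10%) at 2 days and 12 of 42 (28.6%, interval 15.7 to 44.6) at 13 weeks, against 9.44% to 32.0% for the interval of the reference cells at 13 weeks. The source of these UMIs was not tested. Flt1, which was not found in reference cells at any time, was in 7 of the 95 cells without Rgs5 at 13 weeks, and 4 of the 95 had 2 or more of the genes. Of the 22 cells without Rgs5 that had any of the 10 genes at 13 weeks, 18 had exactly 1 of the genes, most often Eng (6 cells) or Emcn (4 cells).

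Cells with 2 or more of the genes, of which the reference cells had none at any time, made up 5.52% of cells at 2 days (interval 2.68 to 9.93), 10.1% at 6 weeks (6.16 to 15.3) and 14.3% at 13 weeks (8.83 to 21.4). Between 2 days and 13 weeks the difference was 8.76 percentage points (interval 1.75 to 16.4), and after thinning to 300 UMIs it was 4.73 points (-1.18 to 11.5). Within cells with Rgs5, 2 or more were found in 28.6% of 2-day, 35.6% of 6-week and 39.5% of 13-week cells. The 13-week share exceeded the 2-day share by 10.9 points (-12.6 to 33.0). Cells with Rgs5 made up 19.3% of the 2-day, 23.8% of the 6-week and 28.6% of the 13-week cells. Among single genes, Flt1 was found in 4.42% of cells at 2 days and 14.3% at 13 weeks, Pecam1 in 1.66% and 7.52%, and Kdr in 2.21% and 9.77%. The 10 genes differed by between 1.70 (Cldn5) and 9.87 (Flt1) percentage points, each higher at 13 weeks. After thinning to 300 UMIs, the difference was 5.43 points for Flt1 (interval 0.433 to 11.6) and 2.25 for Pecam1 (-1.92 to 7.48), and it turned to -0.349 for Kdr (-3.37 to 3.34). These intervals cover the counting of cells within 1 pool per time, and no gene is called different between times from them. Plvap was not found in the 2-day cells, which allows a share of up to 1.66%.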

How the data were processed

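Single Tomato+ periosteal cells were sorted into wells and sequenced with a plate-based 3′ protocol that tags each molecule. Per the labels, the authors processed the reads with bcl2fastq 2.18.0.12, Picard 2.9.3 and STAR 2.5.4a on GRCm38, and deposited tables of raw counts (UMIs, and reads) for every gene in each well. The mapping note gives 12 weeks where the sample labels give 13 weeks. The 168 wells without a time point were not used. Counts were analysed in Python 3.11.15 (pandas 2.3.3, scipy 1.17.1), with exact 95% intervals for shares (Clopper-Pearson) and levels (Poisson), which cover counting error only. A count of 0 was limited to 3 counts of the total. UMIs summed per pool were fitted in edgeR 4.0.16 (R 4.3.3; filterByExpr, TMM, quasi-likelihood test, pool as block), with Benjamini-Hochberg adjustment over all genes and a threshold of 0.05, checked on simulated data. Alternatives included DESeq2 1.42.0, other gene minimums, thinning and leaving out each pool. List sums without each pool, and pericyte sums without Rgs5, were added after seeing the data. Named genes were the 10 genes, Rgs5, the marker lists and the 10 genes that correlated best. These genes, lists and tests were chosen with earlier results of these data known.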

Additional observations from a re-analysis of the deposited data

Results flagged for a closer look

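Plvap was the only one of the 10 genes whose level did not move the same way in the pools that held it. Its level in cells with Rgs5 minus that in cells without was 0 UMIs per 10000 in the 2-day pool, where it had no UMI, 0.462 in the 6-week pool and -0.302 in the 13-week pool. The difference between pools was not tested, and it rests on 13 UMIs, 6 of them in 1 cell without Rgs5 at 13 weeks, without which the 13-week value was 0.393.

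Wells with fewer than 200 genes were left out of the main comparisons. Those with 100 or more genes entered only an alternative with that lower minimum. All such wells together held 8.39 UMIs of the 10 genes per 10000, where a count of 0 would allow 1.80. The UMIs lay in 11 of 97 wells, and 2 of these wells had 2 or more of the genes.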

How the results depend on the processing

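The share difference between cells with and without Rgs5 stayed positive in all 12 alternatives (31.8 to 47.5 percentage points). The log2 fold changes of Flt1, Kdr, Egfl7, Cdh5 and Esam stayed positive in every alternative in which they were fitted. Counts of called genes and shares of cells have no direction to lose. Of these counts, shares and the share difference, 106 values moved little and 25 moved further. Little means a count moved by at most 1.5 times, or a share within the 95% interval of the value reported. Without the cell with the most Plvap UMIs, a choice made after seeing the data, the 13-week Plvap difference turned from -0.302 to 0.393 UMIs per 10000. Of 85 share differences, 7 turned after thinning to 300 UMIs, all of single genes. The Rgs5 difference of Emcn went from 4.89 to -0.539 points (13-week pool 3.68 to -2.17) and that of Eng in the 2-day pool from 5.83 to -0.704. For 13 weeks minus 2 days, Kdr went from 7.56 to -0.349, and within cells with Rgs5 Kdr went from 14.9 to -3.12, Egfl7 from 11.4 to -3.48 and Cldn5 from -0.226 to 2.94. In the comparison by Rgs5, genes called higher (109) numbered 31 after thinning to 300 UMIs, 49 with DESeq2 and 71 without a filter on low counts. Genes called lower (109) numbered 31, 55 and 218 in these settings and 62 without the deepest 5% of cells. Of the 10 endothelial genes, 1 was called after thinning, and of the other endothelial genes, 3 in either comparison. Fewer genes passed the filter after thinning. In the comparison by the number of endothelial genes, 11 genes were higher and 16 lower after thinning (73 and 87 before), and 276 were lower without the filter. The causes of the other shifts were not tested.

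Leaving out each pool in turn gave 64 to 97 genes higher and 55 to 104 lower by Rgs5, the lowest both without the 6-week pool, and 43 to 90 higher and 35 to 103 lower by the number of endothelial genes, the lowest both without the 2-day pool. The 10 genes had 5 to 6 called, other endothelial genes 6 to 10 and 7 to 10 in the 2 comparisons, and the share difference ranged from 35.5 to 40.9 percentage points. The log2 fold changes ranged from 3.54 to 4.66 for Cdh5, 3.35 to 4.32 for Egfl7, 3.86 to 6.22 for Esam, 2.89 to 4.17 for Flt1 and 3.96 to 5.59 for Kdr. Without the pool as a block, 86 genes were higher, 78 lower and 5 of the 10 genes called.

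Shares of cells with any of the 10 genes were 7.30% at 2 days after thinning to 500 UMIs, 9.89% at 6 weeks and 23.02% at 13 weeks after thinning to 300, and 13.2% and 21.8% when 2 reads were required. The share of cells with 2 or more genes was 5.38% after thinning, and that with both Flt1 and Egfl7 1.24% after thinning and 3.98% with 2 reads. Eng, Emcn, Cldn5 and Plvap had 26 UMIs or fewer each, and their missed calls do not show that the groups were alike.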
